A study of Homo sapiens with 6 samples.

Results

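Amino acid transporters are the membrane carriers that bring amino acids into the cell or move them between its compartments. The 34 genes described here were taken from a list of symbols of the solute carrier (SLC) families 1, 3, 6, 7, 16, 25, 36, 38 and 43, matched by identifier to the count tables, and all 34 were found among 62696 gene rows. C4-2 is a human prostate cancer cell line, used as a model of castration-resistant disease, and the study asked what loss of the kinase CDK12 does in it. The CDK12KO group held 3 bulk RNA libraries of C4-2 cells in which CDK12 had been knocked out with CRISPR-Cas9, and the VEC group held 3 libraries of C4-2 cells with the vector and a genotype labelled WT. Both groups were grown without treatment in RPMI1640 with fetal bovine serum. The labels give neither the number of clones nor separate cultures behind the replicates. A p-value here reflects the scatter among these 6 libraries and no more, and that scatter may be technical.

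Many of these carriers work in pairs or in exchange. The heavy chain SLC3A2 (4F2hc, CD98) holds light chains such as SLC7A5 (LAT1) at the cell surface, where they swap large neutral amino acids across the membrane, and with SLC7A11 (xCT) it forms the cystine and glutamate exchanger that feeds glutathione synthesis. SLC1A5 (ASCT2) and the SLC38 family carry glutamine and other small neutral amino acids, and prostate cells are known for their use of SLC7A5, SLC43A1 (LAT3) and SLC1A5. Several of the genes are known targets of ATF4, the transcription factor of the amino acid response, which cells switch on when amino acids run short or under other stresses that phosphorylate eIF2α.

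The libraries held 16617644 to 21590817 reads counted in genes. Levels are given in CPM, the counts of a gene scaled to a common number of gene reads, with TMM factors between libraries. CDK12 itself had 60.8, 56.9 and 56.5 CPM in knockout libraries 1 to 3, against 60.2, 48.0 and 57.1 CPM in vector libraries 1 to 3, so its RNA level does not separate the groups (log2 change 0.08 ± 0.13 SE, adjusted p = 0.709). An edited gene can keep its RNA, so this neither checks nor contradicts the knockout labels. Knockout library 2 stood apart: its log2 CPM correlated with the other libraries at 0.916 to 0.950, against 0.977 to 0.990 among those, and ribosomal protein genes took 19.8% of its gene reads, against 11.4% and 11.6% in knockout libraries 1 and 3 and 9.07% to 9.58% in vector libraries. The TMM factor of knockout library 2 was 0.737, against 1.04 to 1.10 in the others. Its CPM are thereby raised relative to plain counts per gene read. Results are therefore given both without that library and with all 6. All 13 luminal prostate markers passed the filter on low counts, with summed levels of 8300 to 11130 CPM in knockout libraries and 9680 to 9843 CPM in vector libraries. Leukocyte, endothelial, basal and stromal marker lists summed to 0.0629 to 32.7 CPM in knockout libraries and 0.275 to 25.6 CPM in vector libraries.

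Without knockout library 2, 9 of the 28 transporters with enough reads for the test in both sets of libraries changed in CDK12KO cells, 6 upward and 3 downward. As in any bulk RNA, fewer cells of a type and less RNA per cell cannot be told apart. SLC3A2, SLC7A5, SLC7A11, SLC1A5, SLC43A1 and SLC6A9 (GlyT1) were higher, and SLC7A8 (LAT2), SLC6A6 (TauT) and SLC25A22 were lower. Absolute log2 changes were 0.19 to 0.62, so none reached 2-fold. SLC1A2, barely expressed, was called too, but it entered the test without knockout library 2 alone, through the group where it is high, and is kept out of these counts. Calls were made with edgeR's quasi-likelihood test at an adjusted p under 0.05, where the adjustment (Benjamini-Hochberg) ran over all genes tested. Of the 15783 genes tested in both sets 19.6% were called, 10.5% higher and 9.1% lower, against 32.1% of the transporters, 21.4% higher and 10.7% lower. Over all 16339 genes tested without knockout library 2 the share was 19.1%, with 10.2% higher and 8.88% lower. The median log2 change was 0.13 over the 28 members and -0.011 over all genes tested in both sets. Well expressed genes are called more often, and this background was added after the values were seen: among genes of at least 50 CPM, 35.4% were called, against 6 of the 11 transporters at that level (54.5%). Among genes of at least 10 CPM 26.9% were called, against 8 of 22 transporters. Of the 28 members 11 had both knockout libraries above the vector libraries, against 25.0% of genes, and 6 had both below, against 22.9%. An unadjusted p under 0.05 was seen in 13 of the 28, against 32.2% of genes. The count of called members, 10 with SLC1A2, moved with 1 more library left out, and so did the share of all genes. It was 4 without knockout library 1 (7.82% of all genes), 3 without knockout library 3 (6.58%), 6 without vector library 1 (13.5%) and 16 without vector library 2 (29.3%).

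With all 6 libraries edgeR called 0 of the 28 transporters it tested, with adjusted p of 0.172 to 0.936, while 0.596% of all 15783 genes were called, 0.418% higher and 0.177% lower. DESeq2 called 2 of them, SLC3A2 higher (adjusted p = 0.0331) and SLC6A6 lower (adjusted p = 0.0475), where it called 6.21% of all genes. limma-voom called 0, against 0.665% of all genes. At an unadjusted p under 0.05 edgeR gave 6 of 28 members, against 21.7% of all genes: SLC3A2, SLC1A5 and SLC6A9 were higher, and SLC7A2, SLC7A8 and SLC6A6 were lower. The knockout libraries lay entirely above the vector libraries in 7 members, against 20.4% of all genes, and entirely below in 4, against 19.0% of all genes (39.4% both ways). The biological coefficient of variation was 24.2% with all libraries and 7.997% without knockout library 2. The 28 members had a median log2 change of -0.0046, and all genes one of 0.00037.

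**Figure D1:**
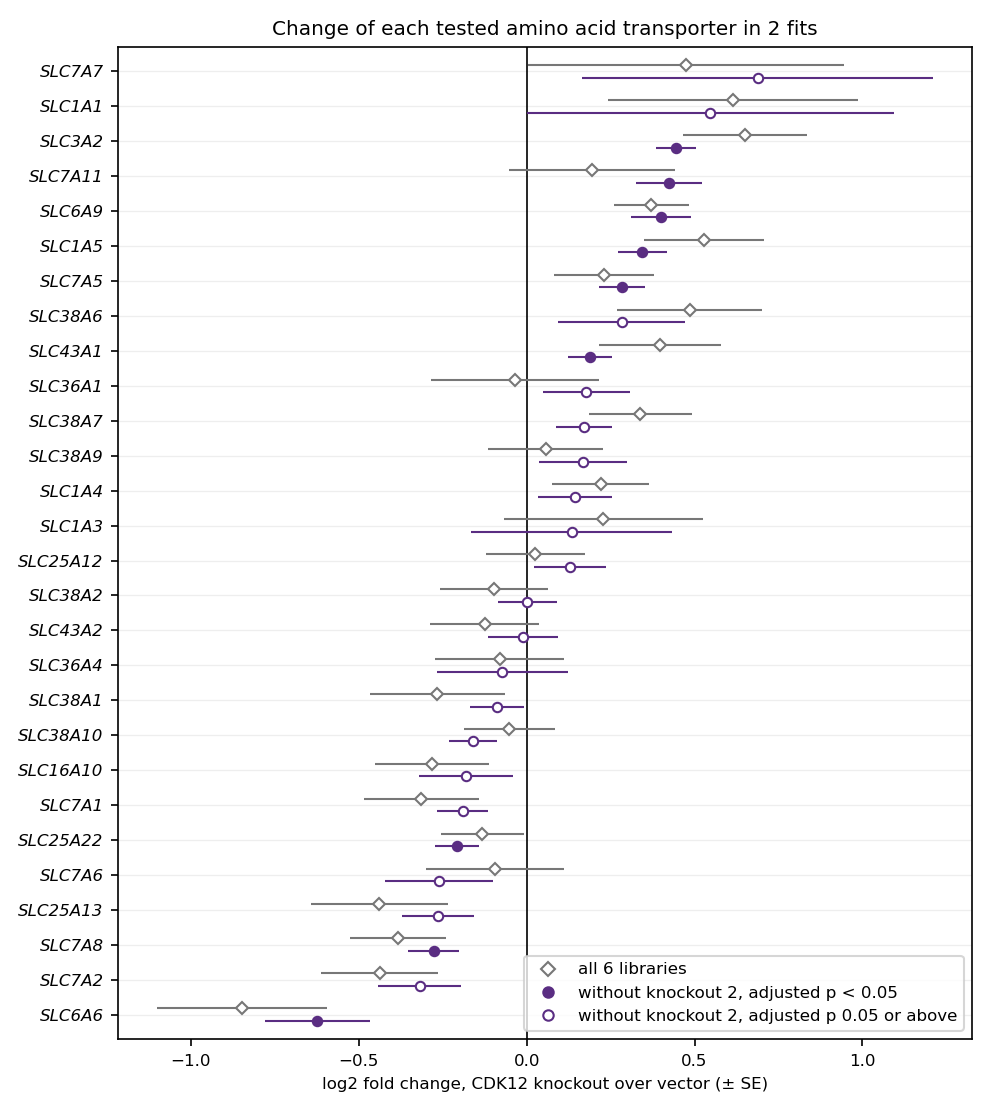
Log2 change in CDK12KO over VEC cells for the 28 transporters tested in both fits, with the standard error as bars, without knockout library 2 (circles, filled where called) and with all 6 libraries (diamonds). The changes called without that library lie between -0.62 and 0.44 here, since SLC1A2 was tested in that fit alone, and none was called by edgeR with all libraries.

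Over the 6 libraries 11 of the 34 genes averaged at least 50 CPM, 11 lay between 10 and 50, 4 between 1 and 10, and 8 under 1. The whole list summed to 2895, 3008 and 2816 CPM in knockout libraries 1 to 3, against 2662, 2633 and 2619 CPM in vector libraries 1 to 3. On this scale the knockout libraries lay above the vector libraries in their total. As a share of all gene reads, without TMM factors, the list took 0.302%, 0.221% and 0.297% in knockout libraries 1 to 3, against 0.286%, 0.273% and 0.287% in vector libraries 1 to 3, so there knockout library 2 was the lowest. Genes can be ranked against each other only per transcript length, here as CPM per kilobase. Per kilobase of the longest annotated transcript, SLC3A2 came first with 205 in knockout cells and 130 in vector cells (means of 3 libraries each). SLC7A5 followed with 114 in knockout cells and 97.2 in vector cells, and SLC43A1 with 118 in knockout cells and 89.9 in vector cells. SLC7A5 was above SLC43A1 in each vector library, by 92.7 against 87.8, 106 against 95.5 and 93.0 against 86.3, but below it in knockout library 2, by 104 against 149. Per kilobase of the median transcript, which short fragment transcripts lower, SLC3A2 stood at rank 1 and SLC43A1 at rank 3 again, but SLC7A5 stood at rank 8.

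**Figure D2:**
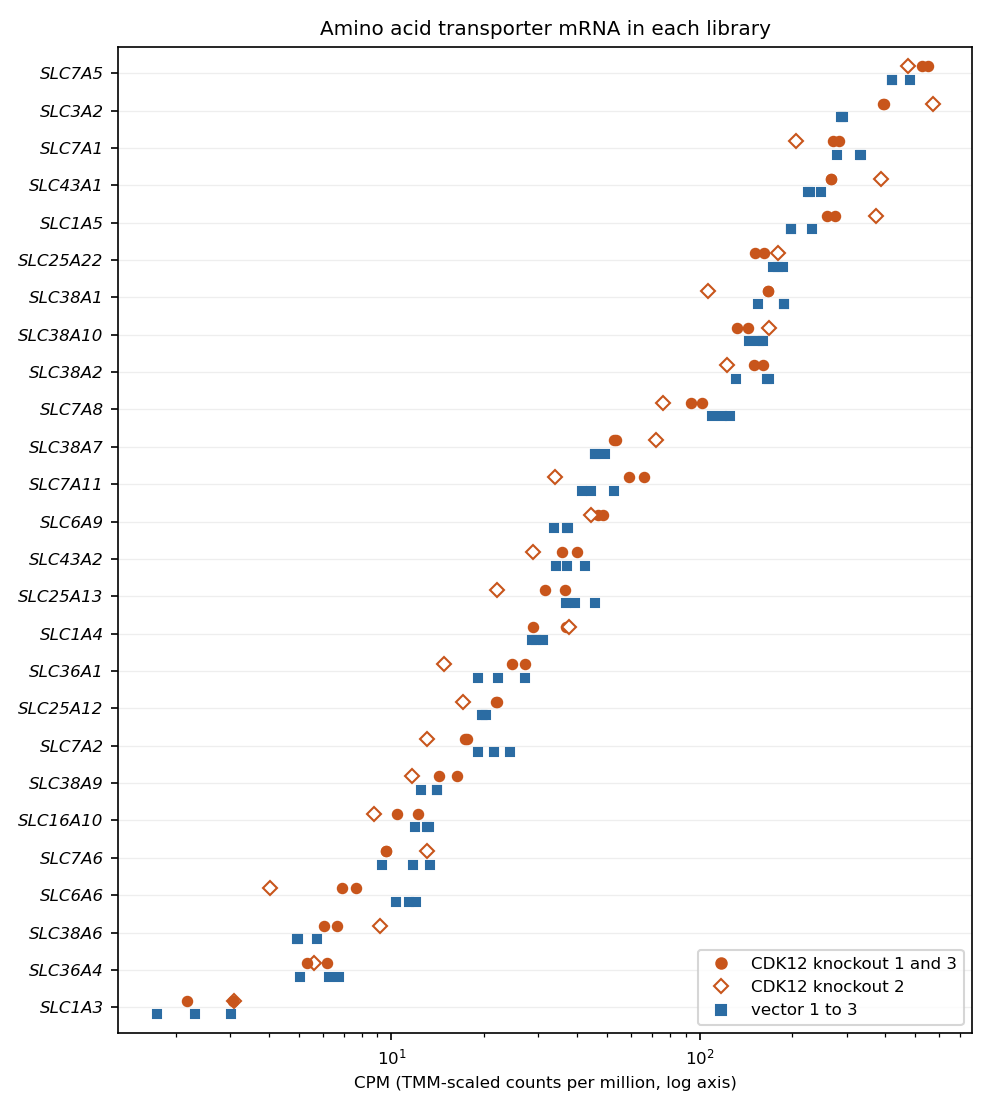
Level in every library, in CPM on a log axis, of the transporters that averaged at least 1 CPM, ordered by their mean. Filled circles are knockout libraries 1 and 3, open diamonds knockout library 2 and squares the vector libraries. On this scale, with TMM factors, the diamond lies above all other points for SLC3A2, SLC43A1 and SLC1A5 among others. It lies below all of them for SLC7A11 and SLC6A6 among others. Without TMM factors SLC1A5 was not highest in knockout library 2.

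The heavy chain SLC3A2 lies on chromosome 11 (GENCODE 29 on GRCh38, positions 62856102 to 62888875, plus strand). SLC3A2 had 393, 573 and 397 CPM in knockout libraries 1 to 3, against 292, 287 and 290.0 CPM in vector libraries 1 to 3. Every knockout library was above every vector library, and knockout library 2 was the highest. SLC3A2 rose by 0.44 ± 0.060 on the log2 scale without knockout library 2 (SE, adjusted p = 3.97e-05), and the log2 change was 0.65 ± 0.18 with all libraries (adjusted p = 0.172). Without that library it passed under all 14 alternatives, with adjusted p up to 0.00343. The other heavy chain, SLC3A1 (rBAT), which carries the cystine transporter of the kidney, had 1 read in the 6 libraries.

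SLC7A5, the main light chain for leucine and other large neutral amino acids, lies on chromosome 16 (87830023 to 87869488, minus strand). SLC7A5 had 552, 473 and 526 CPM in knockout libraries 1 to 3, against 421, 480.3 and 422 CPM in vector libraries 1 to 3. Knockout libraries 1 and 3 were above all vector libraries, while knockout library 2 lay below vector library 2, so the groups overlap. SLC7A5 rose by 0.28 ± 0.068 on the log2 scale without knockout library 2 (adjusted p = 0.00607), and the log2 change was 0.23 ± 0.15 with all libraries (adjusted p = 0.349). With knockout library 1 left out as well, its adjusted p was 0.141. Reads of SLC3A2 per read of SLC7A5 were 0.713, 1.21 and 0.755 in knockout libraries 1 to 3, against 0.694, 0.597 and 0.688 in vector libraries 1 to 3. This ratio was highest in knockout library 2, and libraries 1 and 3 of the knockout exceeded the highest vector library by a small margin.

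SLC7A11, the light chain of the cystine and glutamate exchanger, lies on chromosome 4 (138164097 to 138242349, minus strand). SLC7A11 had 59.0, 33.97 and 65.8 CPM in knockout libraries 1 to 3, against 44.4, 41.6 and 52.9 CPM in vector libraries 1 to 3. Knockout libraries 1 and 3 were above every vector library and knockout library 2 was below every one. SLC7A11 rose by 0.43 ± 0.098 on the log2 scale without knockout library 2 (adjusted p = 0.00495), and the log2 change was 0.19 ± 0.25 with all libraries (adjusted p = 0.618). It was the single called member whose level in knockout library 2 lay on the other side of the vector mean. Leaving out knockout library 3 as well gave an adjusted p of 0.117.

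SLC7A8 (LAT2), a light chain for neutral amino acids large and small, lies on chromosome 14 (23125295 to 23183674, minus strand) and moved the other way. SLC7A8 had 101, 75.9 and 93.7 CPM in knockout libraries 1 to 3, against 126, 118 and 109.9 CPM in vector libraries 1 to 3. All knockout libraries were below all vector libraries. SLC7A8 fell by 0.28 ± 0.075 on the log2 scale without knockout library 2 (adjusted p = 0.0140), and the log2 change was -0.38 ± 0.14 with all libraries (adjusted p = 0.215). Its call was lost without knockout library 1 (adjusted p = 0.0521), without knockout library 3 (0.254) and without vector library 1 (0.0908). The remaining light chains of this group, SLC7A6 (y+LAT2) and SLC7A7 (y+LAT1), which exchange cationic for neutral amino acids, did not pass in either fit. SLC7A6 had 9.58 to 13.0 CPM in knockout libraries, against 9.35 to 13.3 CPM in vector libraries, and SLC7A7 had 0.503 to 1.09 CPM in knockout libraries, against 0.409 to 0.824 CPM in vector libraries.

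SLC1A5, the glutamine carrier ASCT2, lies on chromosome 19 (46774883 to 46788594, minus strand). SLC1A5 had 276, 373 and 259 CPM in knockout libraries 1 to 3, against 199, 232 and 199 CPM in vector libraries 1 to 3. With TMM factors every knockout library was above every vector library, with knockout library 2 the highest. Without those factors knockout library 1 was higher, with 5837 of 20284878 gene reads, against 5930 of 21590817 in knockout library 2. SLC1A5 rose by 0.34 ± 0.072 on the log2 scale without knockout library 2 (adjusted p = 0.00231), and the log2 change was 0.53 ± 0.18 with all libraries (adjusted p = 0.205). Leaving out knockout library 1 as well gave an adjusted p of 0.0783.

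Of the other SLC1 carriers, SLC1A4 (ASCT1), which carries alanine, serine and cysteine, had 28.8 to 37.8 CPM in knockout libraries, against 28.5 to 31.0 CPM in vector libraries, and was not called. The glutamate carriers were low. SLC1A3 (EAAT1) had 2.17 to 3.08 CPM in knockout libraries, against 1.74 to 3.02 CPM in vector libraries, and SLC1A1 (EAAT3) stayed under 1 CPM in all of them. Neither was called.

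SLC1A2 (EAAT2), the main glutamate carrier of astrocytes, had 30, 7 and 15 reads in knockout libraries 1 to 3, against 8, 7 and 5 reads in vector libraries 1 to 3. With TMM factors knockout library 2, at 0.440 CPM, lay just above the vector libraries, which had 0.275 to 0.409 CPM. Its 7 reads were fewer than the 8 of vector library 1, so that order depends on the scaling. Knockout libraries 1 and 3 were higher, with 1.42 and 0.776 CPM. SLC1A2 rose by 1.59 ± 0.54 on the log2 scale without knockout library 2 (adjusted p = 0.0446), but it passed the filter on low counts only in that fit. A gene that enters the test through its higher group is favoured to differ, so this call is kept out of the count of members. The call was lost under 7 of 13 alternatives, among them leaving out any single library but vector library 2, with adjusted p of 0.0324 to 0.526 over all 13.

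The cationic carriers SLC7A1 (CAT1) and SLC7A2 (CAT2) bring in arginine and lysine, and both had lower means in knockout cells without passing the test. SLC7A1 had 283, 205 and 271 CPM in knockout libraries 1 to 3, against 334, 279 and 332 CPM in vector libraries 1 to 3. Only knockout library 1 overlapped the vector range, above vector library 2. The log2 change of SLC7A1 was -0.19 ± 0.076 without knockout library 2 (adjusted p = 0.0899) and -0.31 ± 0.17 with all libraries (adjusted p = 0.290). With vector library 2 also left out the adjusted p was 0.000227. SLC7A2 had 13.0 to 17.6 CPM in knockout libraries, against 19.1 to 24.3 CPM in vector libraries, with no overlap. Its log2 change was -0.32 ± 0.12 without knockout library 2 (adjusted p = 0.0781).

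The SLC38 family (SNATs) carries glutamine, alanine and other small neutral amino acids, and none of its 8 listed members was called. SLC38A1 (SNAT1) had 166, 107 and 167 CPM in knockout libraries 1 to 3, against 187, 154 and 188 CPM in vector libraries 1 to 3. SLC38A2 (SNAT2), which cells are known to raise when starved of amino acids, had 161, 123 and 151 CPM in knockout libraries 1 to 3, against 165, 131 and 168 CPM in vector libraries 1 to 3. The groups overlap for both genes, and the lowest value of each was in knockout library 2. Without that library the log2 change was -0.089 ± 0.080 for SLC38A1 (adjusted p = 0.486) and 0.0022 ± 0.088 for SLC38A2 (adjusted p = 0.988). Leaving out vector library 2 as well gave SLC38A1 a log2 change of -0.18 (adjusted p = 0.0105).

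Among SLC38 members of internal membranes or less known site, SLC38A10 had 132, 168 and 143.6 CPM in knockout libraries 1 to 3, against 155, 161 and 144.2 CPM in vector libraries 1 to 3. The groups overlap through knockout library 2, while knockout libraries 1 and 3 were below all vector libraries, library 3 by a small margin. The log2 change of SLC38A10 was -0.16 ± 0.070 without knockout library 2 (adjusted p = 0.125) and -0.051 ± 0.14 with all libraries (adjusted p = 0.817). SLC38A7 (SNAT7), which exports glutamine from lysosomes, had 52.9, 72.3 and 53.4 CPM in knockout libraries 1 to 3, against 45.8, 49.4 and 45.9 CPM in vector libraries 1 to 3. All knockout libraries were above all vector libraries for SLC38A7, but its log2 change of 0.17 ± 0.083 without knockout library 2 did not pass (adjusted p = 0.170). Without vector library 2 as well it did (adjusted p = 0.0424). SLC38A9, the arginine sensor of the lysosome that signals to mTORC1, had 11.6 to 16.3 CPM in knockout libraries, against 12.4 to 14.1 CPM in vector libraries, and SLC38A6 had 6.04 to 9.19 CPM in knockout libraries, against 4.93 to 5.71 CPM in vector libraries. SLC38A4 and SLC38A5 had at most 15 reads in any library.

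SLC43A1 (LAT3), a facilitated carrier of branched-chain amino acids and phenylalanine with a known place in prostate cancer cells, lies on chromosome 11 (57484534 to 57515786, minus strand). SLC43A1 had 267, 388 and 267 CPM in knockout libraries 1 to 3, against 228, 248 and 224 CPM in vector libraries 1 to 3. With TMM factors every knockout library was above every vector library, and knockout library 2 stood far above the other 5. Without those factors the knockout libraries were close to each other. SLC43A1 took 5654 of 20284878, 6169 of 21590817 and 5169 of 18333400 gene reads in knockout libraries 1 to 3. SLC43A1 rose by 0.19 ± 0.064 on the log2 scale without knockout library 2 (adjusted p = 0.0467), and the log2 change was 0.40 ± 0.18 with all libraries (adjusted p = 0.246). Its call was ended by 8 of 14 alternatives, among them leaving out knockout library 1 (adjusted p = 0.274), knockout library 3 (0.268), vector library 1 (0.147) or vector library 3 (0.122). SLC43A2 (LAT4) had 28.8 to 39.9 CPM in knockout libraries, against 34.2 to 42.5 CPM in vector libraries, and was not called. SLC43A3 had 2 reads in all.

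Of the SLC6 carriers, which draw on the sodium and chloride gradients, SLC6A9 (GlyT1) carries glycine and lies on chromosome 1 (43991500 to 44031467, minus strand). SLC6A9 had 46.9, 44.4 and 48.7 CPM in knockout libraries 1 to 3, against 33.8, 37.1 and 37.3 CPM in vector libraries 1 to 3. The groups did not overlap, and knockout library 2 was close to the other knockout libraries. SLC6A9 rose by 0.40 ± 0.089 on the log2 scale without knockout library 2 (adjusted p = 0.00373), and the log2 change was 0.37 ± 0.11 with all libraries (adjusted p = 0.184). Leaving out knockout library 3 as well gave an adjusted p of 0.0765. Its exons overlap those of CCDC24 on the other strand, which had 16.1, 27.6 and 16.5 CPM in knockout libraries 1 to 3, against 11.7, 15.6 and 14.9 CPM in vector libraries 1 to 3.

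SLC6A6 (TauT), the taurine carrier, lies on chromosome 3 (14402576 to 14489349, plus strand) and moved the other way. SLC6A6 had 7.69, 4.03 and 6.93 CPM in knockout libraries 1 to 3, against 11.4, 10.4 and 12.0 CPM in vector libraries 1 to 3. All knockout libraries were below all vector libraries, and knockout library 2 was the lowest. SLC6A6 fell by 0.62 ± 0.16 on the log2 scale without knockout library 2 (adjusted p = 0.00825), and the log2 change was -0.85 ± 0.25 with all libraries (adjusted p = 0.184). Leaving out knockout library 3 as well gave an adjusted p of 0.132. SLC6A14, a broad carrier of neutral and cationic amino acids, had 1 read in all.

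SLC25A22, a mitochondrial glutamate carrier, lies on chromosome 11 (790475 to 798333, minus strand). SLC25A22 had 162, 179.7 and 151 CPM in knockout libraries 1 to 3, against 180.2, 187 and 173 CPM in vector libraries 1 to 3. Knockout libraries 1 and 3 were below all vector libraries, and knockout library 2 lay inside their range. SLC25A22 fell by 0.21 ± 0.067 on the log2 scale without knockout library 2 (adjusted p = 0.0346), and the log2 change was -0.13 ± 0.12 with all libraries (adjusted p = 0.499). The call was lost under 5 of 14 alternatives, among them leaving out knockout library 1 (adjusted p = 0.113), knockout library 3 (0.397) or vector library 1 (0.118). The aspartate and glutamate carriers of the mitochondrion, SLC25A12 and SLC25A13, were not called, nor were the proton-coupled carriers SLC36A1 and SLC36A4 or the aromatic amino acid carrier SLC16A10. Among these SLC25A13 had 22.0 to 36.7 CPM in knockout libraries, against 36.9 to 45.9 CPM in vector libraries.

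Of the 9 called members tested in both sets, 8 had knockout library 2 on the same side of the vector mean as knockout libraries 1 and 3 (SLC25A22 by a negligible margin), and 6 had it beyond every vector library. Among all 3091 such called genes these shares were 94.5% and 91.9%. The vector libraries also made the calls, so these counts are no independent check. Its departure from knockout libraries 1 and 3 went both ways among the 28 members tested with all libraries, from 0.87 lower for SLC7A11 to 0.54 higher for SLC43A1 on the log2 CPM scale. Across these genes Spearman's rho between the departure and the longest annotated transcript was -0.542 (n = 28 genes from the same libraries, given as a description). On that scale, which uses TMM factors, SLC3A2, SLC43A1, SLC38A6 and SLC1A5 were higher in knockout library 2 than in knockout libraries 1 and 3. All of these have longest transcripts under 3 kb. SLC7A11 and SLC38A1, with longest transcripts above 8 kb, were lower. SLC25A12, also under 3 kb, was 0.36 lower, so the trend has exceptions. The part of transcript length in the changes was not tested. For the span of the gene on the chromosome, the rho with the log2 change was -0.138 without knockout library 2 (n = 31) and -0.303 with all libraries (n = 28). The 31 include SLC1A2, SLC38A4 and SLC38A5, tested in that fit alone, so these rho values cover different genes.

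**Figure D3:**
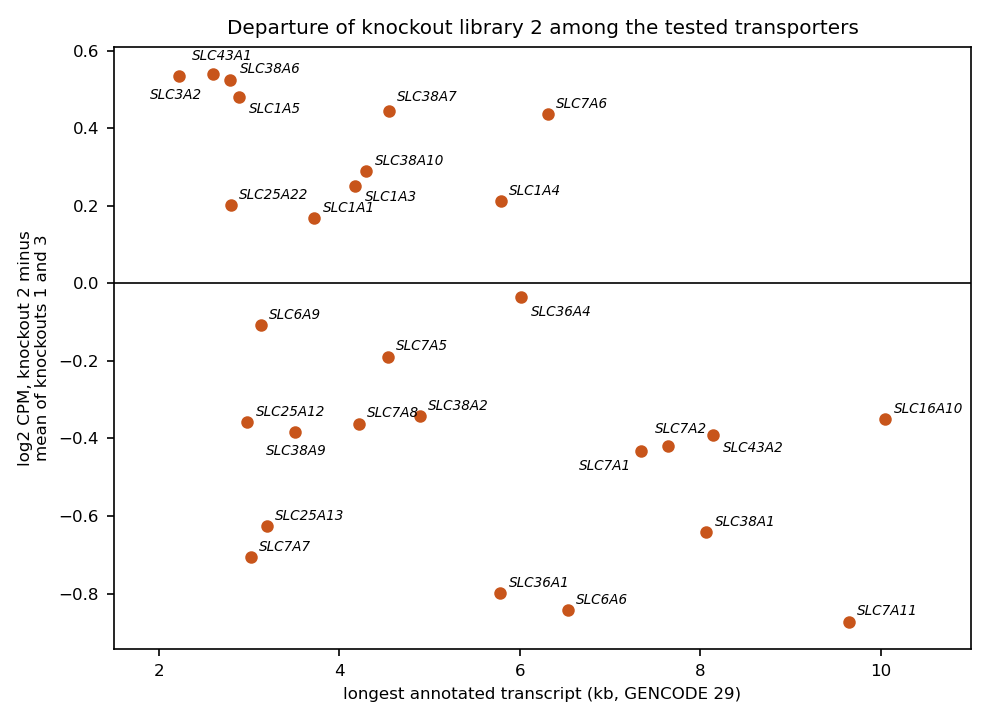
Departure of knockout library 2 from the mean of knockout libraries 1 and 3 (log2 CPM) against the longest annotated transcript (kb), one point per transporter tested with all libraries. SLC43A1 and SLC3A2 lie near the top at short lengths, and SLC7A11 at -0.87 lies lowest near the long end.

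The upstream windows of the 3 members that led the order per kilobase of longest transcript are shown, since SLC3A2, SLC7A5 and SLC43A1 are the most abundant carriers by that measure and all were called higher. The windows are the 250 bases before a RefSeq start (GRCh38.p14), for SLC3A2 chr11:62881449-62881698 on the plus strand, for SLC7A5 chr16:87869508-87869757 on the minus strand and for SLC43A1 chr11:57515703-57515952 on the minus strand, written 5′ to 3′ along the gene. SLC3A2 has 3 such windows, SLC7A5 has 1 and SLC43A1 has 2, and the first listed of each gene is shown, so other starts are left out. Capitals mark a match to a searched motif.
SLC3A2: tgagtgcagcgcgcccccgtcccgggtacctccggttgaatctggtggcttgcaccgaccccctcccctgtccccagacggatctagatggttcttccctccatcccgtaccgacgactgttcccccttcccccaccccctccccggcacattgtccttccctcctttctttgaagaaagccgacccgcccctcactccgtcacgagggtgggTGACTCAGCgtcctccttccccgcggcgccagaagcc
SLC7A5: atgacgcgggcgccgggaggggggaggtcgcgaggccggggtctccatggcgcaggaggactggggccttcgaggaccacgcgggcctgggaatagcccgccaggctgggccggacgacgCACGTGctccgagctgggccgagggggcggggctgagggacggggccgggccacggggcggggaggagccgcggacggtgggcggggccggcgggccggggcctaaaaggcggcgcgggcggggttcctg
SLC43A1: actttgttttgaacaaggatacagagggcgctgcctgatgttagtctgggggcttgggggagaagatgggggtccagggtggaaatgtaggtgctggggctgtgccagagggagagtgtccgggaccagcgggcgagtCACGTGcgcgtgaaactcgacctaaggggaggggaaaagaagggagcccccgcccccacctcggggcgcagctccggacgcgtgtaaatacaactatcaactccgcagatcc

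The motifs, searched on both strands, were TGATGNAAN (the CARE core bound by ATF4 dimers), TGACNNNGC (the antioxidant response element) and CACGTG (the E-box). In SLC3A2 the capitals are an antioxidant response element match, TGACTCAGC, from 37 to 29 bases upstream of the start. In SLC7A5 they are an E-box from 130 to 125 bases upstream, and in SLC43A1 an E-box from 112 to 107 bases upstream. RefSeq windows were at hand for 28 of the 34 genes, 52 windows in all. The CARE core was in 2 of the 52 (3.85%), against 3.13% of all 35116 windows, and the 2 genes were SLC1A3 and SLC1A5. The antioxidant response element was in 8 of 52 (15.4%), against 10.9% of all windows, and the E-box in 8 of 52 (15.4%), against 6.34% of all windows. A match describes the letters in the window and is neither a bound site nor a cause of a change.

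Genes around the transporters were read from lists of the same field, by counts. The lists were not matched for level to all genes, and well expressed genes are called more often. Without knockout library 2, 26.9% of genes of at least 10 CPM and 35.4% of genes of at least 50 CPM were called. Without knockout library 2, 18 of 29 amino acid response genes rose and 2 fell, with a median log2 change of 0.32, against -0.015 for all genes, of which 10.2% were higher and 8.88% lower. Fewer of the 29 were called with knockout library 1 or 3 also left out, and so were fewer of all genes. Each of those fits holds a single knockout library. GDF15, a stress-induced secreted factor, averaged 348 ± 13.6 CPM in knockout libraries 1 and 3 (SD, n = 2) and 178 ± 4.83 CPM in vector libraries (SD, n = 3) and rose by 0.96 ± 0.062 on the log2 scale (adjusted p = 3.80e-09). DDIT4, an inhibitor of mTORC1, averaged 307 ± 0.201 CPM in knockout libraries 1 and 3 and 158 ± 7.23 CPM in vector libraries and rose by 0.95 ± 0.064 (adjusted p = 6.09e-09). PHGDH, the first enzyme of serine synthesis, rose by 0.73 ± 0.064 (adjusted p = 2.60e-07), and TRIB3, a pseudokinase that damps ATF4, by 0.67 ± 0.065 (adjusted p = 9.32e-07). The 2 that fell were ALDH18A1, which starts proline synthesis (adjusted p = 0.0272), and EIF2AK4 (GCN2), the kinase that senses uncharged tRNA (adjusted p = 0.0132). Both lost the call without knockout library 3 and without vector library 1, and ALDH18A1 also without knockout library 1 and without vector library 3, with adjusted p up to 0.387. With all 6 libraries edgeR called 2 of the 29, against 0.596% of all genes: FGF21 (adjusted p = 0.0338) and GDF15 (adjusted p = 0.0468). DESeq2 called 8 of the 29, all higher, against 6.21% of all genes, and limma-voom 2, against 0.665%. In edgeR 13 of the 29 had an unadjusted p under 0.05, against 21.7% of all genes. The median log2 change was 0.40, against 0.00037 for all genes. FGF21, a secreted factor of the stress response, had 5.05, 9.56 and 5.22 CPM in knockout libraries 1 to 3, against 0.154, 0.672 and 0.604 CPM in vector libraries 1 to 3. Leaving out any library other than knockout library 2 ended the edgeR calls of FGF21 and GDF15. The adjusted p of FGF21 was then 0.0767 to 0.217. GDF15 lost its call without knockout library 1 (adjusted p = 0.105), without knockout library 3 (0.106) and without each vector library (0.286, 0.268 and 0.316 for libraries 1 to 3). ASNS, the asparagine synthetase often used as a reporter of this response, averaged 3.68 ± 1.51 CPM in knockout cells and 4.26 ± 0.486 CPM in vector cells (SD, n = 3 each, all libraries) and was not called.

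Of the 13 tested genes of the list of further amino acid carriers, 0 rose and 3 fell without knockout library 2, where edgeR gave 6 at an unadjusted p under 0.05. These 3 are 23.1% of the list, near the 19.1% of all genes called, and 31.7% of all genes had an unadjusted p under 0.05. SFXN2, a mitochondrial carrier of the sideroflexin family, averaged 68.1 ± 6.17 CPM in knockout libraries 1 and 3 (SD, n = 2) and 85.9 ± 1.32 CPM in vector libraries (SD, n = 3) and fell by 0.34 ± 0.077 (adjusted p = 0.00419). MFSD12, which brings cysteine into lysosomes and melanosomes, fell by 0.31 ± 0.087 (adjusted p = 0.0174), and SLC15A4, a carrier of histidine and peptides of the lysosome, by 0.46 ± 0.16 (adjusted p = 0.0466). All 3 lost their call without knockout library 1 (adjusted p = 0.156 for SFXN2, 0.0632 for MFSD12 and 0.2396 for SLC15A4). MFSD12 also lost it without knockout library 3 (adjusted p = 0.211), and SLC15A4 without knockout library 3, vector library 1 or vector library 3 (0.169, 0.190 and 0.147). SLC25A38, a mitochondrial glycine carrier, had a log2 change of 0.23 ± 0.080 (adjusted p = 0.0554), which passed without vector library 2 (0.0296). The cytosolic aminoacyl-tRNA synthetases, which load tRNA with amino acids, had 5 of 20 higher and 1 lower, 30.0% together against 19.1% of all genes and 35.4% of genes of at least 50 CPM, with a median log2 change of -0.0018. CARS1 (cysteine) rose by 0.52 ± 0.076 (adjusted p = 8.49e-05), GARS1 (glycine) by 0.36 ± 0.068 (adjusted p = 0.000890), SARS1 (serine) by 0.34 ± 0.063 (adjusted p = 0.000903) and QARS1 (glutamine) by 0.30 ± 0.062 (adjusted p = 0.00211). With knockout library 1 also left out, a single knockout library remains, and fewer synthetases and fewer of all genes were called. GARS1 (log2 change 0.31) and QARS1 (0.28) lost their calls there.

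Amino acid sensing upstream of mTORC1 had 7 of 35 genes higher and 3 lower without knockout library 2, against 10.2% of all genes higher and 8.88% lower, with a median log2 change of 0.046. LAMTOR5, LAMTOR4 and LAMTOR2, subunits of the Ragulator scaffold on the lysosome, rose by 0.56 ± 0.079 (adjusted p = 6.83e-05), 0.49 ± 0.070 (adjusted p = 7.08e-05) and 0.49 ± 0.074 (adjusted p = 0.000125). LAMTOR4 had 133, 500.4 and 141 CPM in knockout libraries 1 to 3, against 92.4, 103 and 97.2 CPM in vector libraries 1 to 3, so knockout library 2 stood far above all others. With knockout library 1 or 3 also left out, fewer of these genes were called, and likewise fewer of all genes.

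Glutamine, glutamate and aspartate metabolism had 3 of 25 genes higher and 7 lower, against 10.2% of all genes higher and 8.88% lower, with a median log2 change of -0.11. ASS1, which joins citrulline and aspartate, rose by 0.55 ± 0.070 (adjusted p = 2.30e-05), and PSAT1, of serine synthesis, by 0.30 ± 0.065 (adjusted p = 0.00277). GCLC, the catalytic subunit of the first enzyme of glutathione synthesis, averaged 23.6 ± 1.52 CPM in knockout libraries 1 and 3 (SD, n = 2) and 40.01 ± 3.45 CPM in vector libraries (SD, n = 3) and fell by 0.77 ± 0.11 (adjusted p = 4.67e-05). GFPT1, which uses glutamine in the hexosamine pathway, fell by 0.45 ± 0.081 (adjusted p = 0.000624). Branched-chain amino acid catabolism had 4 of 20 genes higher and 5 lower, against the same 10.2% and 8.88% of all genes, with a median of -0.15. These shares of all genes are not matched for level, and 35.4% of genes of at least 50 CPM were called. BCAT1 and BCAT2, the cytosolic and mitochondrial transaminases of that pathway, rose by 0.78 ± 0.15 (adjusted p = 0.00118) and 0.41 ± 0.072 (adjusted p = 0.000521). ECHS1, a mitochondrial hydratase, rose by 0.33 ± 0.061 (adjusted p = 0.000964), and MCCC2, a subunit of the leucine-degrading carboxylase, fell by 0.38 ± 0.067 (adjusted p = 0.000577). PSAT1 lost its call without knockout library 1 (adjusted p = 0.0699). Both lists had fewer calls with knockout library 1 or 3 also left out, as had all genes. Without vector library 1 the 10 calls in the glutamine list became 5 and the 9 in the branched-chain list became 5. The share of all genes called was then 13.5%, against 19.1% with that library kept. With all 6 libraries edgeR and limma-voom called 0 genes of the 5 lists other than the response list, with 3 to 9 in each at an unadjusted p under 0.05 in edgeR, against 21.7% of all genes. DESeq2 called 0 of the carriers, 1 synthetase, 2 sensing genes, 2 of the glutamine list and 2 of the branched-chain list. It called 6.21% of all genes. PSAT1, GPT2, ASNS, ALDH18A1 and PYCR1 stand in both the amino acid response list and the glutamine list, and SESN2 in both the response list and the sensing list.

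**Figure D4:**
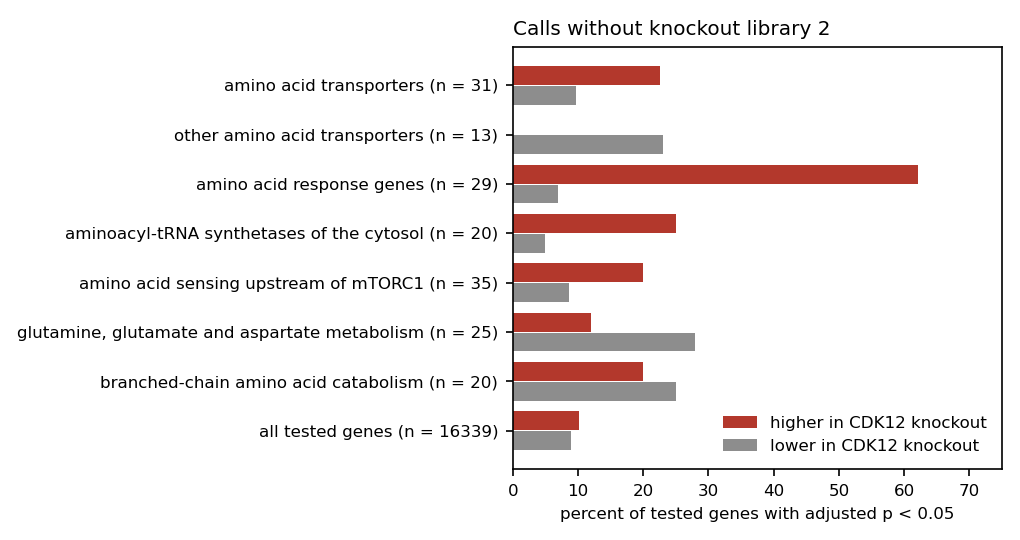
Percent of tested genes with an adjusted p under 0.05 without knockout library 2, higher (upper bar) or lower (lower bar) in CDK12KO cells, for the transporters, the 6 related lists and all tested genes, with the number tested as n. The longest bar is that of the amino acid response genes, 18 of 29 of which were higher, against 10.2% of all genes. The transporter bars count all 31 tested in that fit, 7 higher and 3 lower. They include SLC1A2, which the text keeps out of its counts over 28.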

How the data were processed

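Total RNA was extracted and sequenced from 3 CDK12KO and 3 VEC libraries, grouped by their titles. The authors deposited raw counts of reads for every gene. Per the submitters' processing notes, FastQC and STAR were used with GRCh38, and neither their versions nor the annotation is given in the sources used here. Both stranded columns had nearly equal sums (ratio 1.02 to 1.04), so the unstranded counts were used, and reads of a gene and of one overlapping it on the other strand cannot be told apart; 14 of the 34 members overlap another gene's exons. Reads in more than 1 gene (11.1% to 14.4% of reads) and multimapping reads (6.49% to 8.73%) are outside the gene rows.

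The fits used edgeR 4.0.16 under R 4.3.3 (TMM, filterByExpr, robust quasi-likelihood test, Benjamini-Hochberg adjustment over all tested genes, threshold 0.05), on all 6 libraries and on the 5 without knockout library 2. The SE is the absolute log2 change over the square root of F. Alternatives were limma-voom (limma 3.58.1), DESeq2 1.42.0, other factors, filters, a replicate block and the omission of each library. Log2 CPM used a prior count of 2, and scripts were tested on simulated data. Positions and lengths come from GENCODE 29. Members and lists were chosen with earlier results of these data known, and the counts over genes tested in both sets of libraries were added after the values were seen. Values in every library are given for members called in either fit or averaging at least 50 CPM, plus 7 preset ones, and for each list up to 4 genes with the smallest p without knockout library 2 are named (some results are not reported here); LAMTOR4's libraries, FGF21, ASNS, ALDH18A1 and EIF2AK4 were chosen after their values were seen.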

Additional observations from a re-analysis of the deposited data

How the results depend on the processing

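No call changed its sign under any alternative. With all 6 libraries the count of transporters called was 2 with DESeq2 and 0 to 10 when 1 library was left out (10 without knockout library 2, 0 otherwise), and 0 under every other alternative. The count over the 6 related lists was 2, and it was 1 with RLE factors, 7 with no filter beyond 1 count, 15 with DESeq2, 0 with the replicate block, 1 with the sum of the stranded columns and 0 to 55 when 1 library was left out. Without knockout library 2 the 10 transporters called, SLC1A2 among them, became 17 with the replicate block. That block called 33.9% of all genes, against 19.1% without it. Vector library 2 has no knockout library of its number there, so this setting is close to leaving it out. The count was 8 to 9 under the other alternatives of scaling, filter and test. It was 6 without vector library 1 (13.5% of all genes), 16 without vector library 2 (29.3%) and 8 without vector library 3 (13.4%). The 55 genes of the related lists became 82 with the replicate block and 28 to 69 when 1 more library was left out, with 28 and 29 without knockout library 1 or 3, where the lone knockout library is assumed to vary like the vector libraries. Transporters at 10 or more CPM per kilobase in vector cells were 20 by median transcript length and 13 by longest transcript. The cause of these shifts was not tested. The labels do not state whether replicate numbers pair the libraries, and the values do not settle it. The correlations of same-numbered deviations from the group means were low, at 0.135, 0.194 and 0.084, but each library correlated best with its own number. With all libraries 6 members had too few counts for a test, and with 3 against 3 libraries an exact test of a single gene cannot go below 0.1.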
